A study of Mus musculus with 4 samples.

Results

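The AMPA and NMDA receptor subunit genes described here are Gria1, Gria2, Gria3, Gria4, Grin1, Grin2a, Grin2b, Grin2c, Grin2d and Grin3a. They were taken by symbol from the deposited spatial counts table, in which all 10 were present among 19465 genes. AMPA receptors carry the fast excitatory current at most brain synapses and are tetramers of the proteins GluA1 to GluA4 (Gria genes). The GluA2 subunit, once its RNA is edited, makes the channel nearly impermeable to calcium. NMDA receptors need the obligatory subunit GluN1 (Grin1) together with GluN2 subunits (Grin2 genes) or GluN3 subunits, which set channel kinetics, magnesium block and calcium entry. Receptors of GluN1 with GluN2 subunits need glutamate and a co-agonist to open, and depolarisation of the membrane relieves their magnesium block. In the striatum both AMPA and NMDA receptors receive the input from cortex and thalamus.

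The study is on Celsr3 deficiency and the striatum of the mouse; Celsr3 encodes a cadherin-type adhesion receptor of the neuronal surface. Coronal sections through the striatum were cut from formalin-fixed, paraffin-embedded brains of 4 mice, 2 wild type and 2 Celsr3 heterozygous, with no treatment. Strain, age and sex are not in the labels used here, and the Celsr3 allele is named only as heterozygous. Probes bound to the sections were captured on a grid of barcoded spots (Visium CytAssist), each a small region that can hold several cells.

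The barcode endings split the 12602 spots into 4 barcode sets, called sets 1 to 4, and none of these endings names an animal or a genotype. No comparison of genotypes was therefore made. The 4 values are given side by side with no mean, SD or p-value, and every interval is an exact 95% interval for counting error only. Sets 1 to 4 held 174761560, 109663162, 165185177 and 90752475 counts in 3055, 2808, 3445 and 3294 spots. The 4744 different barcodes are grid positions, of which 1613 occurred in all 4 sets.

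Spots were placed in 15 brain areas by marker genes, none of them a receptor subunit gene. Of 12601 spots with at least 500 counts, 10806 were placed and 1795 (14.2%) were left out because no area led clearly. Every marker was higher inside its area than outside, apart from 1 of 5 in layer 5. Of the 10 leading genes of layer 5 and of the lateral septum, only 1 each was a marker. When spots were re-assigned by profile, 519 of 596 layer 5 spots and 241 of 286 lateral septum spots kept their area. Among the areas compared, the smallest share kept was in the ventricle lining, at 116 of 257 spots. Meninges (235 of 401), layer 6b and claustrum (405 of 671) and basal forebrain (366 of 568) came next. The striatum held 580, 657, 754 and 405 spots of sets 1 to 4. Cortex here means layers 2/3, 4, 5 and 6 together. In 11 areas each of the 4 sets had 30 spots or more. The lateral septum was compared in sets 2 and 3, the thalamus in sets 1 and 4, and the choroid plexus in sets 1 and 3, while the hippocampus had too few spots.

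RefSeq promoter windows (GRCm38.p6, 250 bases before the start site) were found for 5 of the 10 genes. Those of Gria2 and Grin1, the reference genes of the subunit ratios, and of Grin2d, which differed from cortex in opposite directions in the striatum and the thalamus, are shown 5′ to 3′ on the minus strand. Gria2 lies at chr3:80802836-80803085, Grin1 at chr2:25319188-25319437 and Grin2d at chr7:45866682-45866931. Capitals mark motif matches on either strand.
Gria2: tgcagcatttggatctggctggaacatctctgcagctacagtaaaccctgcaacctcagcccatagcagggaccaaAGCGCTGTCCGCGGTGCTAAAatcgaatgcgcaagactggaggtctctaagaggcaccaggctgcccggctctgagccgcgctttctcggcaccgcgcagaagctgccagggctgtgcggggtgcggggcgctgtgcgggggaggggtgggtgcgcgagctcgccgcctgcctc
Grin1: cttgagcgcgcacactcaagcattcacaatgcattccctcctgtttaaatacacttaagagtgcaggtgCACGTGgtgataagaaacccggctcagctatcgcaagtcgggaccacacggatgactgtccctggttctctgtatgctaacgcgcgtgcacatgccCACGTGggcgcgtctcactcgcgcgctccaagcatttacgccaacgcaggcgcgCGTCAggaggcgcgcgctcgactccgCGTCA
Grin2d: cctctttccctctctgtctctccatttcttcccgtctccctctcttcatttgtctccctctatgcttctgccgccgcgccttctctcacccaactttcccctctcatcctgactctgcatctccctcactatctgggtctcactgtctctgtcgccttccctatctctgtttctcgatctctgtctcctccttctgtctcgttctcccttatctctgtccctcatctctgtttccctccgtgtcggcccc
The capitals in Gria2 match the 21-letter RE1 motif, of which 18 letters are fixed, on the other strand with 2 mismatches, starting at position -174. RE1 is the binding sequence of the neuronal repressor REST, and 0.469% of 32851 windows held it with up to 4 mismatches. The capitals in Grin1 are E boxes (CACGTG, in 6.02% of windows) and cores of the cAMP response element (TGACG, in 17.8%), here read on the other strand. Grin2d held none of these motifs, nor the GC box GGGCGG, which 32.7% of windows held. The windows of Gria2, Grin1 and Grin2d held 19, 27 and 9 CpG sites, against a median of 6 over all windows. No measurement here bears on factor binding.

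Over the whole section all 10 genes were detected in every set. Levels are given as CPM, the counts of a gene scaled to 1000000 counts of the same spots. They are compared between areas and sets but not between genes, because each gene is read by its own probes. Of the AMPA subunit genes, Gria1 was at 373.1, 331.6, 474.8 and 283.2 CPM in sets 1 to 4 and Gria2 at 441.2, 329.2, 507.5 and 267.6 CPM. Gria3 ranged from 154.6 to 208.4 CPM and Gria4 from 66.2 to 135.4 CPM. Grin1 lay between 678.7 and 814.3 CPM, Grin2a between 122.5 and 158.9 CPM, and Grin2b between 324.9 and 458.1 CPM. Grin2c lay between 35.0 and 43.9 CPM, Grin2d between 8.45 and 37.5 CPM, and Grin3a between 30.7 and 60.2 CPM. The lowest count behind any of these values was 1395, for Grin2d in set 3.

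The first comparison set the striatum against cortex within each set. Of the AMPA subunit genes, Gria1 was higher and Gria4 lower in the striatum. Of the NMDA subunit genes, Grin3a was lower. Gria2 and Grin1 were within 1.12-fold of their cortical level in every set. A gene is called higher or lower when the fold was at least 1.5 in the same direction and its interval left out 1 in every set compared. Of the 10 genes, 9 passed a minimum mean of 10 CPM. Of these, 1 was higher and 2 were lower, beside 8.04% higher and 11.4% lower of all 9886 genes tested. The median log2 fold was -0.20 over the 10 genes and 0.01 over all genes tested. In such sums over spots, fewer cells of a type and less RNA per cell cannot be told apart. The summed level of 7 neuron markers was 0.401 to 0.450 of cortex in the striatum, all 7 below it, and that of 8 myelin markers 1.901 to 2.28 times cortex, all 8 above it. Their part in these values was not tested.

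Gria1 encodes GluA1, the subunit best known for activity-dependent insertion at synapses. In the striatum it was at 540.9, 415.8, 589.5 and 427.3 CPM in sets 1 to 4, and in cortex at 270.1, 239.7, 297.0 and 209.4 CPM. The lowest striatal value lay above the highest cortical value. The fold was 2.00 (1.95 to 2.05), 1.73 (1.68 to 1.79), 1.98 (1.94 to 2.03) and 2.04 (1.96 to 2.12).

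Gria4 encodes GluA4, which is typical of fast-spiking interneurons and of some thalamic and cerebellar cells. It was at 94.8, 46.3, 99.4 and 48.2 CPM in the striatum and at 157.3, 77.0, 155.3 and 76.1 CPM in cortex. The striatal level was below the cortical level in each set, although the ranges over the sets overlapped. The fold lay between 0.601 and 0.640.

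Gria2, the gene of the edited subunit, was at 559.8, 367.8, 556.8 and 338.6 CPM in the striatum and at 570.0, 364.8, 544.9 and 360.3 CPM in cortex. Its fold was 0.982 (0.963 to 1.00), 1.01 (0.981 to 1.04), 1.02 (1.00 to 1.04) and 0.940 (0.903 to 0.978), so that the sets did not share a direction. Gria3, which encodes GluA3, had striatal levels of 237.8, 191.7, 201.3 and 197.0 CPM and cortical levels of 315.7, 246.5, 271.2 and 231.7 CPM. Its fold of 0.742 to 0.850 had intervals below 1 in all 4 sets but did not reach 1.5-fold.

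Grin1 was at 934.7, 1003.1, 963.3 and 840.8 CPM in the striatum and at 934.7, 896.2, 950.4 and 859.4 CPM in cortex. The fold was between 0.978 and 1.12, and the interval lay above 1 in set 2 alone. Grin2b encodes GluN2B, a subunit with slow decay that is abundant early in life. Its striatal levels were 630.0, 535.1, 573.5 and 482.8 CPM and its cortical levels 561.4, 482.4, 544.6 and 437.7 CPM. The fold of 1.05 to 1.12 had intervals above 1 in all 4 sets and was small.

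Grin2a encodes GluN2A, the faster subunit that becomes prominent in the mature cortex. It was at 139.2, 133.9, 121.8 and 154.8 CPM in the striatum and at 250.3, 240.8, 189.5 and 227.4 CPM in cortex. The ranges did not overlap. The fold of 0.556 to 0.681 missed the 1.5-fold limit in set 4 only, at 0.681 (0.643 to 0.720). Under TMM scaling, which estimates the library size from genes that move least, Grin2a passed the limit with a median log2 fold of -0.78 in place of -0.74. It also passed without set 4, at -0.85.

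Grin2c encodes GluN2C, known from cerebellar granule cells and from astrocytes. It was at 55.6, 53.0, 44.6 and 53.1 CPM in the striatum and at 41.1, 41.4, 32.1 and 39.97 CPM in cortex. The fold was 1.28 to 1.39, with intervals above 1 in all 4 sets and under 1.5-fold in each. The summed level of 7 astrocyte markers was 0.838 to 0.999 of the cortical level in the striatum, with 3 of the 7 above it and 4 below, and its part in the Grin2c values was not tested.

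Grin3a encodes GluN3A, a subunit that lowers calcium permeability and binds glycine. It was at 12.9, 8.95, 9.18 and 7.88 CPM in the striatum and at 37.9, 25.9, 29.4 and 21.7 CPM in cortex. The highest striatal value was below the lowest cortical value, and the fold was 0.313 to 0.363. Grin2d, which encodes GluN2D, had 3.40, 5.21, 2.59 and 6.18 CPM in the striatum and 7.27, 15.01, 6.56 and 17.1 CPM in cortex. Its fold of 0.347 to 0.467 passed the limit for calls, on 62 to 120 striatal counts per set, but its mean level was under 10 CPM, so it is not counted. Grin3a and Grin2d had their lowest level among the 11 areas in the striatum.

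**Figure D1:**
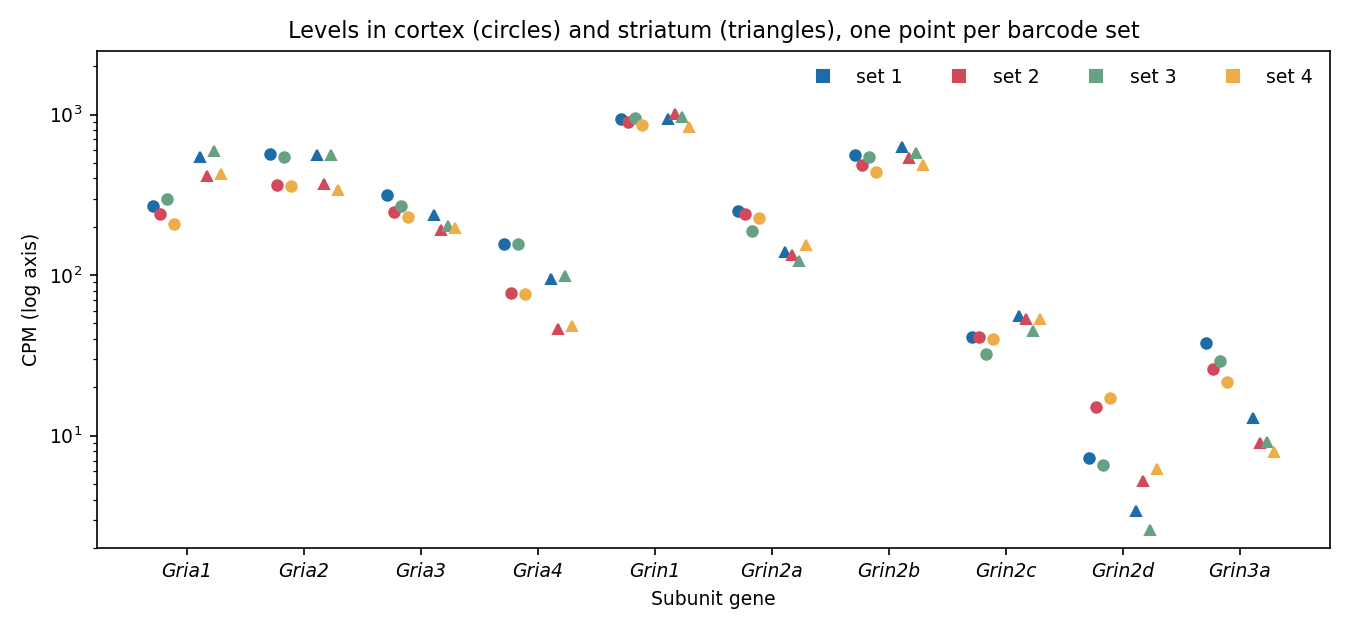
Level of each subunit gene in cortex (circles) and striatum (triangles) in CPM on a log axis, with 1 point per barcode set. Gria1 is higher in the striatum in all 4 sets, Gria4, Grin2a, Grin2d and Grin3a have lower striatal points in all 4 sets, and Gria2 and Grin1 lie at like heights.

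The subunit mix was then compared as ratios of the counts of 2 genes, which do not depend on library scaling. A ratio is called here when its interval left out 1 the same way in every set, with no minimum fold. Of 10 ratios, 3 were higher and 5 lower in the striatum than in cortex. No share over other pairs of genes was computed, and with counts this large small shifts can be called. The number of calls is therefore not a result about these genes. Among AMPA genes, Gria1 counts per Gria2 count were 0.966, 1.13, 1.06 and 1.26 in the striatum. The cortical range was 0.474 to 0.657. The Gria1/Gria2 ratio relative to cortex was 2.04, 1.72, 1.94 and 2.17. The Gria3/Gria2 ratio was 0.726 to 0.905 of the cortical value and the Gria4/Gria2 ratio 0.596 to 0.674.

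Among NMDA genes, the Grin2b/Grin2a ratio was 2.02, 1.99, 1.64 and 1.62 times the cortical value in sets 1 to 4. Grin2b counts per Grin2a count were 3.12 to 4.71 in the striatum and 1.93 to 2.87 in cortex, with no overlap. The Grin2a/Grin1 ratio was lower, at 0.497 to 0.696 of cortex. The Grin2b/Grin1 ratio was 0.991 to 1.13 and was not called. The Grin2c/Grin1 ratio was higher, at 1.35 (1.26 to 1.45), 1.14 (1.06 to 1.24), 1.37 (1.27 to 1.47) and 1.36 (1.22 to 1.51). The Grin2d/Grin1 and Grin3a/Grin1 ratios were 0.310 to 0.467 and 0.309 to 0.371 of cortex. The ratio of the 2 genes that stand for each receptor type, Grin1/Gria2, was 0.992 to 1.11 and was not called.

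**Figure D2:**
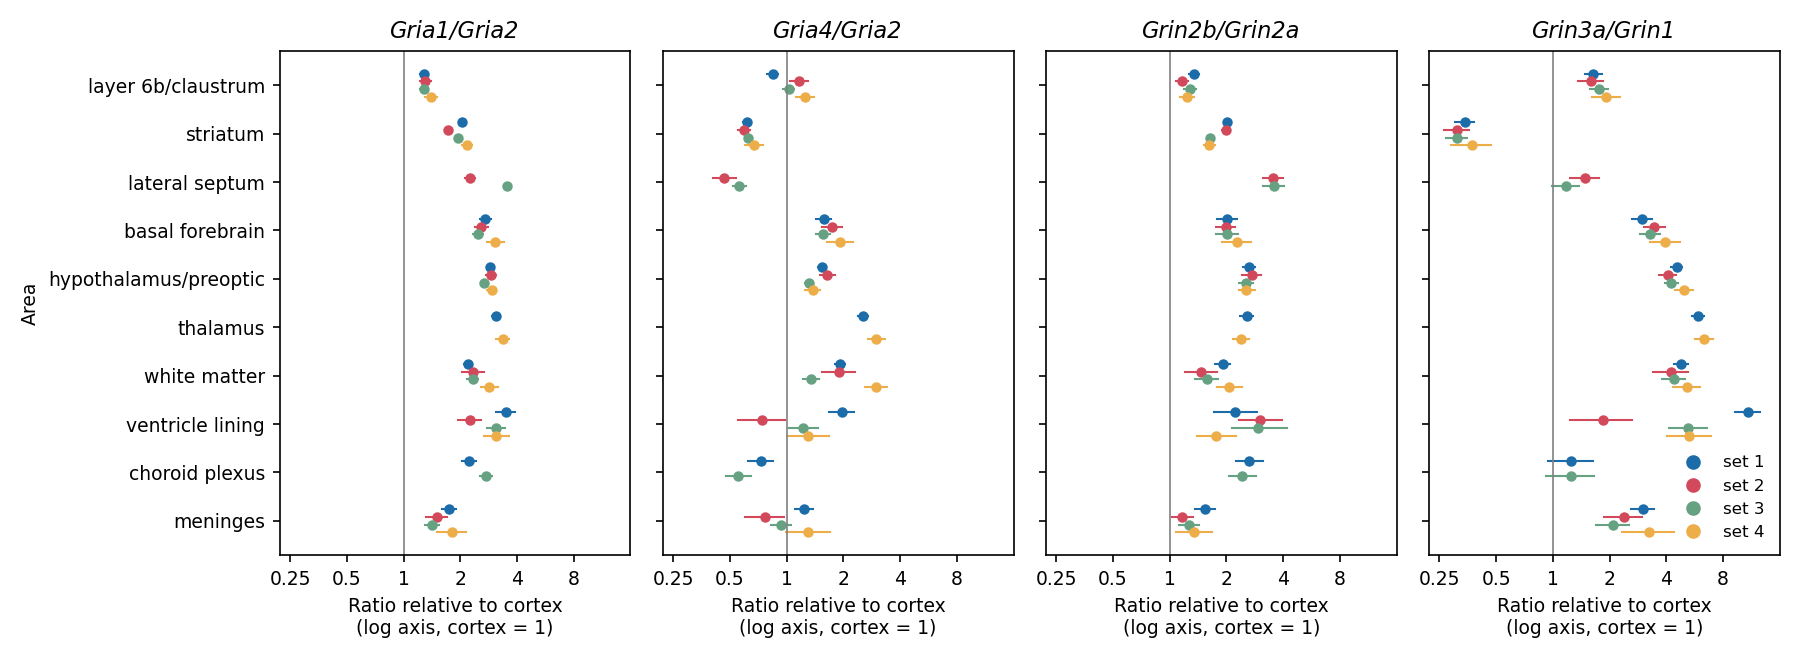
Ratios of 4 pairs of subunit genes in each area relative to cortex in the same barcode set, on a log axis with cortex at 1 (grey line); points are sets and bars are exact 95% counting intervals. Gria1/Gria2 lies above 1 in all 10 areas shown, and Grin3a/Grin1 is below 1 in the striatum alone among them.

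Across the other areas, groups of genes had opposite patterns. Below the cortex, in the basal forebrain, the hypothalamic zone and the thalamus, Grin2d and Grin3a were higher than in cortex, and Gria3, Grin2a and Grin2b were lower. Gria1 was higher in the lateral septum and in the hypothalamic zone, which here includes the preoptic area and extended amygdala. Gria3 and Grin2a were also lower in white matter, ventricle lining, choroid plexus and meninges, although the call of Gria3 in the meninges depended on how spots were placed. Over 9 areas other than the striatum, 10 pairs of gene and area were higher and 30 were lower, beside 9.88% higher and 10.1% lower of 89303 such pairs of all genes tested. Every area was set against the same cortical spots, so these comparisons share their controls. Summed neuron markers were at 0.572 to 0.752 of cortex in the basal forebrain, 0.464 to 0.521 in the hypothalamic zone, 0.738 to 0.784 in the thalamus and 0.511 to 0.585 in the lateral septum. Of the 7 markers 5, 6, 3 and 6 lay below cortex in these areas. Summed myelin markers were at 2.56 to 4.78 times cortex in the basal forebrain, 1.31 to 1.62 in the hypothalamic zone, 1.52 to 1.91 in the thalamus and 0.856 to 2.41 in the lateral septum. The part of these markers in the values was not tested.

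In the thalamus 2 of the 10 genes were higher and 4 lower, beside 11.0% higher and 10.5% lower of 9947 genes tested. Under TMM scaling the split over all genes moved from 1095 higher and 1040 lower to 819 and 1301. Grin2d was at 45.0 and 95.98 CPM in sets 1 and 4, which is 6.19 and 5.61 times its cortical level. Grin3a was at 145.0 and 92.2 CPM, 3.83 and 4.25 times cortex. Gria3 was at 63.8 and 51.2 CPM, or 0.202 and 0.221 of cortex. Grin2a had a fold of 0.250 and 0.254, Gria2 of 0.427 and 0.359, and Grin2b of 0.642 and 0.606. Grin1 was at 0.652 and 0.672 of cortex, which is not called but passed the limit under TMM and RLE scaling.

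In the hypothalamic zone 3 genes were higher and 3 lower, beside 10.8% and 9.21% of 9994 genes tested. Gria1 was at 539.0, 421.2, 635.6 and 421.9 CPM, 1.76 to 2.14 times cortex and close to its striatal level. Grin2d was at 27.3, 49.8, 19.2 and 63.3 CPM, 2.93 to 3.75 times cortex. Grin3a was at 116.0, 67.6, 85.3 and 71.4 CPM, 2.61 to 3.29 times cortex. Grin2a was at 46.4, 38.9, 38.7 and 41.5 CPM, between 0.162 and 0.204 of cortex, and the sets lay close together. Gria3 had a fold of 0.355 to 0.551 and Grin2b of 0.439 to 0.518, while Gria4 stayed between 0.945 and 1.07. The split over all genes moved from 1078 higher and 920 lower to 653 and 1330 under TMM scaling and 763 and 1183 under RLE scaling, and both scalings also placed Grin1 and Grin2c among the lower genes. TMM scaling moved the median log2 fold of all genes there from 0.14 to -0.09.

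In the basal forebrain zone of cholinergic neurons 2 genes were higher and 4 lower, beside 7.73% and 7.49% of 9892 genes. Grin2d was at 19.8, 53.3, 24.3 and 50.8 CPM and Grin3a at 68.7, 60.6, 63.6 and 50.8 CPM. Their folds to cortex were 2.72 to 3.70 and 1.81 to 2.34. Gria2, Gria3, Grin2a and Grin2b were lower, with median folds of 0.543, 0.404, 0.253 and 0.506. Over all genes the split was 765 higher and 741 lower, against 539 and 996 by TMM and 601 and 922 by RLE. Under both scalings Grin1 joined the lower genes, and TMM moved the median of all genes from 0.07 to -0.11 on the log2 scale.

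The lateral septum had the highest Gria1 levels of any area compared, at 771.5 CPM in set 2 and 1367.9 CPM in set 3. These were 3.22 (3.10 to 3.35) and 4.61 (4.49 to 4.72) times cortex. Grin2a was at 67.4 and 39.6 CPM, 0.280 and 0.209 of cortex. Grin2d was 2.43 and 1.70 times cortex, a call that was lost under TMM scaling at a median log2 fold of 0.85. Of the 10 genes 2 were higher and 1 lower, beside 7.44% and 8.69% of 9863 genes. The split of 734 higher and 857 lower became 480 and 1134 by TMM, which also placed Gria3 and Gria4 among the lower genes, and 568 and 1016 by RLE. TMM moved the median of all genes from 0.09 to -0.08. The Grin2b/Grin2a ratio there was 3.53 and 3.56 times the cortical value, the highest median of the areas compared. The Grin1/Gria2 ratio was 0.574 and 0.513 of cortex.

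**Figure D3:**
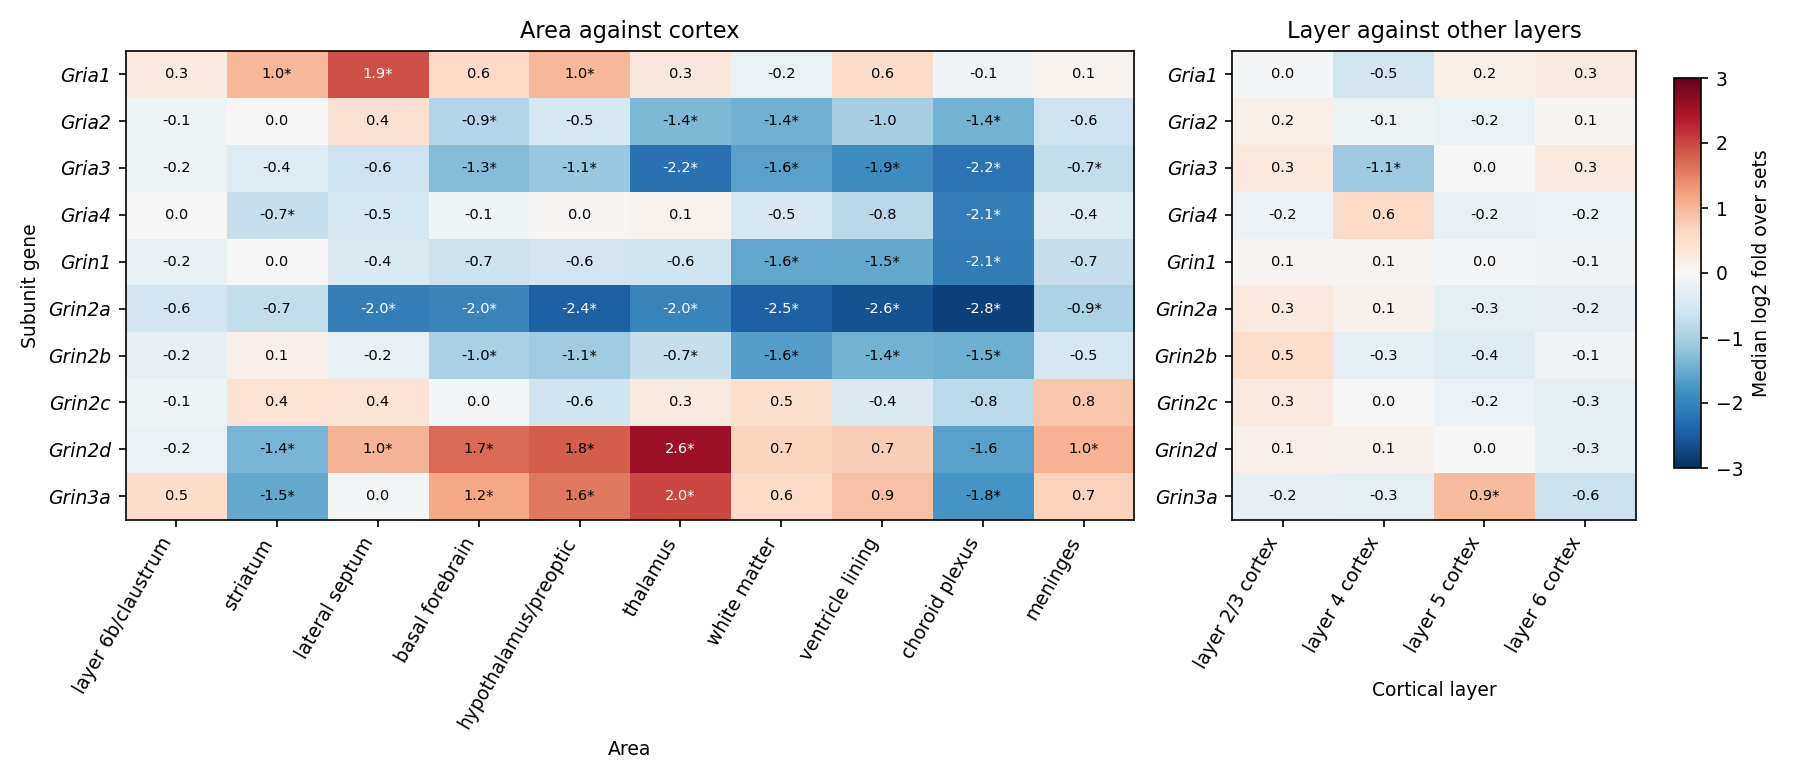
Median log2 fold of each subunit gene over the barcode sets, for areas against cortex (left) and for each cortical layer against the other layers (right); red is higher and blue lower, and an asterisk marks at least 1.5-fold with the counting interval beyond 1 in every set, before the filter on low levels. Grin2d and Grin3a are red in the basal forebrain, hypothalamus and thalamus, where Gria3, Grin2a and Grin2b are blue; Grin2d in the striatum carries an asterisk but is under the 10 CPM filter.

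White matter had 5 lower genes and 0 higher, beside 13.3% lower and 12.7% higher of 9960 genes. Grin1 was at 292.2, 313.7, 318.2 and 296.7 CPM, close to a single level, and 0.313 to 0.350 of cortex. Gria2 was at 214.5, 132.1, 269.4 and 113.2 CPM, and Gria2, Gria3, Grin2a and Grin2b had median folds of 0.369, 0.322, 0.185 and 0.319. Grin2c was at 54.4, 36.9, 46.8 and 70.1 CPM, or 0.890 to 1.75 times cortex, and Gria1, Gria4, Grin2d and Grin3a were not called either. The summed level of 7 neuron markers was 0.322 to 0.419 of cortex in these spots, all 7 below it, that of 5 oligodendrocyte precursor markers 3.25 to 4.09 times cortex and that of 8 myelin markers 11.4 to 16.1 times cortex. Their part in these values was not tested. TMM scaling moved the split over all genes from 1268 higher and 1328 lower to 785 and 2101, and the median from -0.02 to -0.27. The same 5 genes were lower.

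In the ventricle lining 4 genes were lower, beside 9.71% of 9923 genes lower and 14.0% higher. Gria3, Grin1, Grin2a and Grin2b had median folds of 0.270, 0.347, 0.168 and 0.376. The Grin2b call was lost when the marker scores were standardised within each set, at a median log2 fold of -1.37. Neuron markers were at 0.216 to 0.309 of cortex there, all 7 below it, and astrocyte markers at 1.14 to 1.55 times cortex; their part was not tested. The split of 1385 higher and 964 lower became 584 and 2115 by TMM and 857 and 1496 by RLE, with Gria2 and Gria4 added to the lower genes by both and Grin2c by TMM. TMM moved the median of all genes from 0.13 to -0.34. Set 1 held Grin3a at 85.0 CPM in this area, against 22.4, 53.2 and 40.2 CPM in sets 2 to 4.

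In the choroid plexus 7 genes were lower, beside 26.7% of 10016 genes lower and 14.1% higher. Grin2a was at 29.0 and 33.5 CPM in sets 1 and 3, a fold of 0.116 and 0.177. Grin2d had 7 and 23 counts there and was under the filter. Neuron markers were at 0.133 to 0.168 of cortex, all 7 below it, and their part was not tested. TMM scaling moved the median of all genes from -0.21 to -0.34.

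In the meninges Gria3 and Grin2a were lower and Grin2d higher, beside 2.56% lower and 8.56% higher of 9881 genes. Grin2d rested on 40 to 56 counts a set, and its call was lost under TMM scaling, at a median log2 fold of 0.80, under RLE scaling, at 0.87, and with 3 other ways of placing spots. The Gria3 call was lost when the marker scores were standardised within each set, at a median log2 fold of -0.75. Grin2c was at 69.2, 79.1, 60.9 and 58.0 CPM there, 1.45 to 1.91 times cortex, and in set 4 it was higher in white matter, at 70.1 CPM. The 7 astrocyte markers together were at 1.80 to 2.33 times cortex in the same spots, all 7 above it, and the 7 neuron markers at 0.520 to 0.591 of cortex, all 7 below it. Their part in these values was not tested. The split over all genes was 846 higher and 253 lower, against 544 and 675 by TMM and 621 and 479 by RLE. TMM moved the median from 0.01 to -0.23 and placed Grin1 and Grin2b among the lower genes, as RLE did.

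In layer 6b, claustrum and endopiriform together, 0 genes were called, beside 2.39% higher and 2.09% lower of 9827 genes tested. With no minimum fold, counting intervals left out 1 in all 4 sets for 7 of the genes there. The share of all genes by this looser rule was not computed. Some of these shifts were small, such as Gria2 at 0.878 to 0.953 of cortex. The largest were Grin3a at 1.38 to 1.63 times cortex and Grin2a at 0.633 to 0.727. With a lead of 0.5 in placing spots both passed the limit, at median log2 folds of 0.70 and -0.64, and Grin2a also with spots re-assigned by profile, at -0.91.

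The subunit ratios of the other areas were also set against cortex. All areas share the same cortical counts, and no share of calls over other pairs of genes was computed. The Gria1/Gria2 ratio was called higher than in cortex in all 10 areas compared, from a median of 1.30 times cortex in layer 6b and claustrum to 3.23 times in the thalamus. The Gria4/Gria2 ratio was lower in the striatum, the lateral septum and the choroid plexus, and higher in the basal forebrain, hypothalamic zone, white matter and thalamus, where it was 2.55 and 2.997 times cortex. The Grin2b/Grin2a ratio was also called higher in all 10 areas, with a median of 1.26 in layer 6b and claustrum. The Grin2d/Grin1 ratio was 8.36 and 9.50 times cortex in the thalamus and 4.29 to 5.57 times in the hypothalamic zone. The Grin3a/Grin1 ratio was 5.87 and 6.32 times cortex in the thalamus and 4.08 to 4.95 times in the hypothalamic zone. The Grin2c/Grin1 ratio was 2.54 to 5.08 times cortex in white matter and 2.47 to 3.22 times in the meninges. Ratios within spots compare 2 genes and do not say which of them changed.

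Within the cortex the layers were set against each other. Layer 4, which receives the sensory thalamic input, had less Gria3 and was the layer with most Gria4. Gria3 in layer 4 was at 184.8, 109.6, 164.2 and 109.4 CPM, and in layer 2/3 at 364.3, 280.6, 309.2 and 278.4 CPM. The fold of layer 4 to the other layers was 0.406 to 0.533, the one lower call in that layer, beside 2.4% lower and 1.52% higher of 9803 genes tested. Gria4 in layer 4 was at 211.8, 117.2, 199.4 and 105.0 CPM. This was 1.42 to 1.67 times the other layers with intervals above 1 in all 4 sets, but 1.5-fold was not reached in every set. With a stricter lead of 0.5 in placing spots, Gria4 in layer 4 passed the limit at a median log2 fold of 0.67.

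Among the 4 cortical layers, Grin3a was highest in layer 5, which holds the large output neurons of the cortex. It was at 63.1, 40.04, 46.2 and 35.3 CPM there, and the highest value in the other layers was 38.0 CPM. The fold of 1.76 to 2.12 was the one higher call in layer 5, beside 1.03% higher and 1.7% lower of 9803 genes. Layer 6b with claustrum and endopiriform was outside this comparison and held Grin3a at 35.5 to 52.2 CPM, so a like level is not limited to layer 5. Grin2b was at 722.5, 578.9, 704.3 and 543.8 CPM in layer 2/3, 1.39 to 1.47 times the other layers, without reaching 1.5-fold in any set. In layer 2/3, beside 2.56% higher and 2.76% lower of 9803 genes, 0 members were called, and in layer 6 also 0, beside 2.52% and 3.03%. Grin1 stayed between 0.883 and 1.10 of the other layers in every layer and set.

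Ranked by their median over the sets in the 11 areas present in all of them, few neighbouring areas differed beyond counting error in every set. Of the 10 steps between neighbours, 4 did so for Grin1 and Grin2b, 3 for Grin2a, 2 for Gria2 and Grin3a, 1 for Gria1, Gria3, Gria4 and Grin2d, and 0 for Grin2c. Gria1 was highest in the striatum and lowest in layer 4, and its first 2 areas, striatum and hypothalamic zone, were not separated in every set. Gria2, Gria3, Grin2a and Grin2b were highest in layer 2/3. For Gria2 and Gria3 layers 2/3 and 6 were not separated in every set, and for Grin2a layers 2/3 and 4 were not. For Grin2b layer 2/3 lay above the striatum in all 4 sets. Grin1 was highest in layer 4 by median, beyond counting error above the striatum in 3 sets and below it in 1. Layers 4 and 2/3 were not neighbours in this ranking and were not compared for Grin1. Gria4 was highest in layer 4, beyond the hypothalamic zone in all 4 sets. Grin2d and Grin3a were highest in the hypothalamic zone and lowest in the striatum, below layer 6 in every set. For both genes the hypothalamic zone and the basal forebrain were not separated in every set.

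The members also differed between the barcode sets. Over the whole section 5 of the 10 genes had a highest set at least 1.5-fold above the lowest (Gria1, Gria2, Gria4, Grin2d and Grin3a), beside 40.4% of 10144 genes. The share among the members is near that background. The largest spread was that of Grin2d, 4.43-fold, followed by Gria4 at 2.04-fold. The sets also differed in the areas they held. The thalamus had 146, 1, 1 and 291 spots in sets 1 to 4, and the lateral septum 7, 115, 152 and 12. Within cortex alone the spread was 1.42-fold for Gria1, 1.58 for Gria2, 2.07 for Gria4, 2.61 for Grin2d and 1.74 for Grin3a. The part of area content in the section values was not tested. Within the striatum 2 of the 8 genes above the filter were that far apart, beside 39.3% of 9655 genes, and within cortex 4 of 10, beside 39.5% of 9803. Under TMM scaling the counts were 7 of 10 over the section, 5 of 9 in the striatum and 6 of 10 in cortex, beside 47.6%, 48.0% and 44.8% of all genes. Under RLE scaling they were 7 of 10, 3 of 9 and 4 of 10, beside 46.8%, 39.0% and 39.0%.

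For several genes the order of the sets was alike from area to area. Gria4 was higher in sets 1 and 3 than in sets 2 and 4 in all 11 areas, and Gria1, Gria2 and Gria3 in 10 of 11. The share of all genes that keep such an order from area to area was not computed. In cortex Gria4 was at 157.3 and 155.3 CPM in sets 1 and 3 and at 77.0 and 76.1 CPM in sets 2 and 4. Grin2d had the opposite order in all 11 areas, with 7.27 and 6.56 CPM against 15.01 and 17.1 CPM in cortex. Over the whole section 5 members were higher in both sets 1 and 3 (Gria1, Gria2, Gria3, Gria4 and Grin2b) and 1 was lower (Grin2d), beside 40.1% of 10144 genes higher and 29.5% lower. Such an order over the section is therefore not particular to these genes. By TMM the same 5 members were higher and the same 1 lower, beside 56.7% and 16.3% of 10155 genes. Total counts were also larger in sets 1 and 3, and the part of depth in this order was not tested. As the sets are not tied to animals, nothing is said here of genotype.

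**Figure D4:**
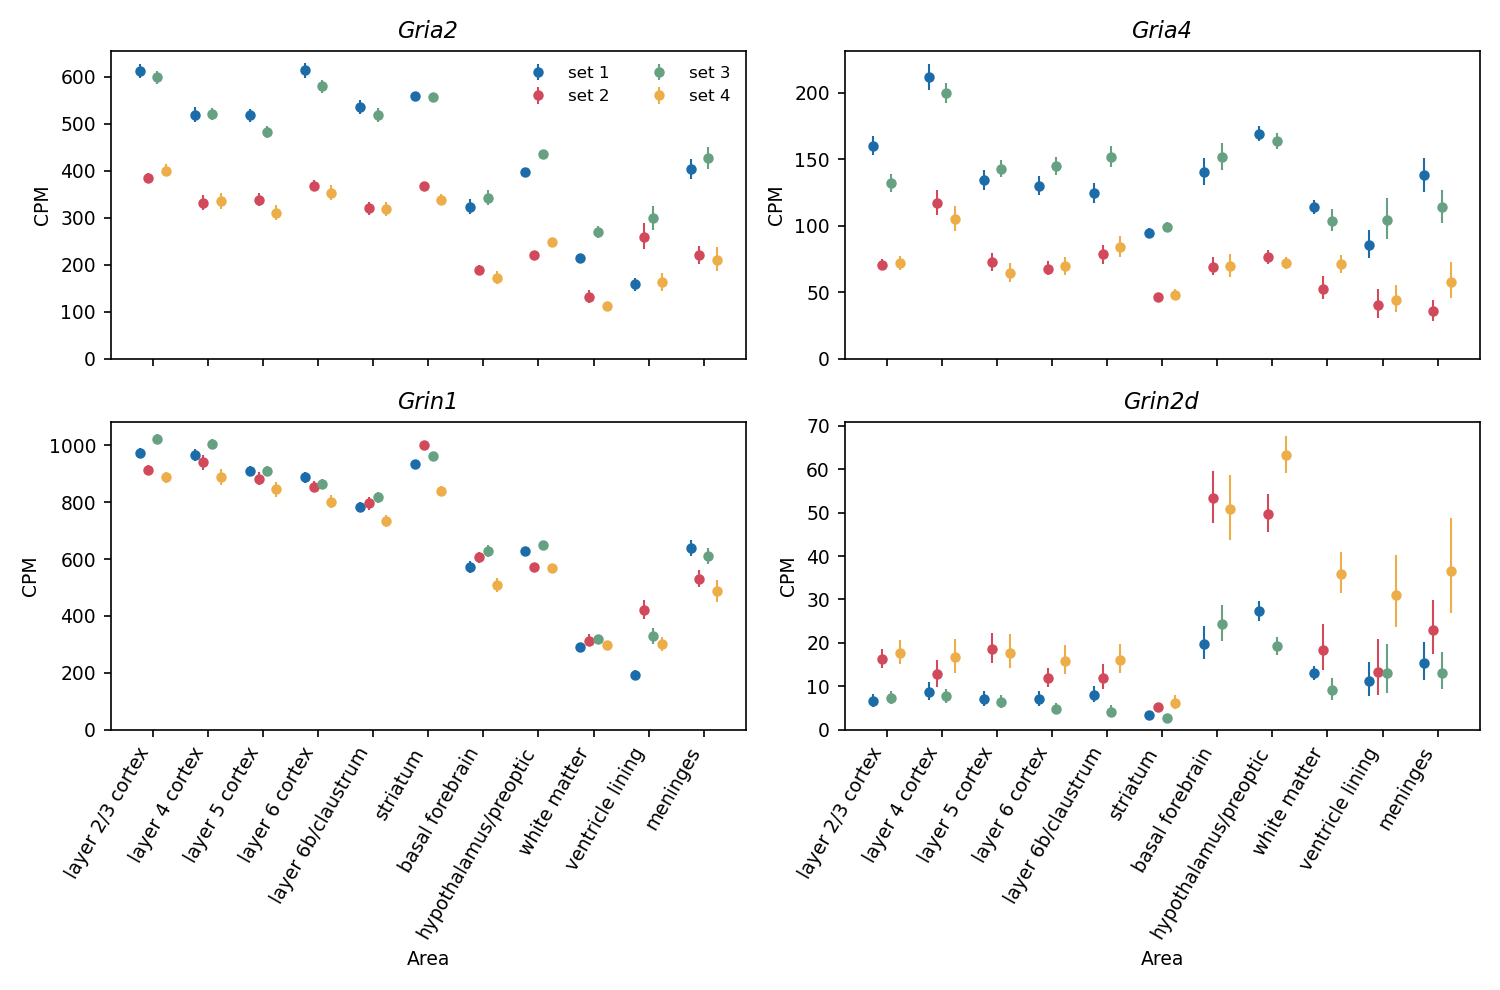
Level of Gria2, Gria4, Grin1 and Grin2d in CPM in the 11 areas present in every barcode set, with exact 95% counting intervals. Gria4 is higher in sets 1 and 3 in all 11 areas and Grin2d in sets 2 and 4, while Grin1 lies between 801.6 and 1023 CPM over the 4 cortical layers. The share of all genes with such orders by area was not computed.

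Over the 44 profiles of 11 areas in 4 sets, the member genes followed each other in groups. Pearson's r of log2(CPM + 1) was 0.92 for Grin1 with Grin2b, 0.90 for Gria3 with Grin2b, 0.88 for Gria2 with Grin2b and 0.86 for Grin2a with Grin2b. Grin2d ran against Gria2, with r of -0.71. The profiles share libraries and areas, so these values are a description. Differences between the sets were not removed, so r joins the pattern over areas with the order of the sets. The parts of areas and sets in r were not separated. The genes most like Grin1 were Ppp3cb (0.96), Sgip1 and Nptn, those most like Grin2b were Rbfox3 (0.96), Wasf1 and Sept11, and those most like Grin2a were Hivep2 (0.98) and Kcnv1. Gria1 was most like Mtch1 (0.90), Trappc2l and Gabrg3. Gria2 was most like Ppp3r1 (0.95), Nbea and Ube2w, Gria3 like Dock3 (0.93), Kcnf1 and Prrt2, and Gria4 like Cse1l (0.94) and Trappc2. Grin2d was most like Gfpt1 (0.91), Lrrc8a and Tgoln1, and Grin3a like Dner (0.89), Camk2d and G6pc3. Grin2c had the lowest of these correlations, with Oaf (0.82), Ppp1r3g and Hapln1.

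Other genes of the excitatory synapse were read from lists. Of the other ionotropic glutamate receptor genes, 7 of 8 were tested, and 3 were higher and 1 lower in the striatum than in cortex. For this and the following lists, the share over all 9886 genes tested was 8.04% higher and 11.4% lower. The kainate receptor gene Grik2 was at 83.2 to 186.3 CPM in the striatum and 29.5 to 62.2 CPM in cortex, 2.73 to 2.998 times as high. Grid1 was 1.86 to 1.93 times as high. The kainate receptor gene Grik1 was lower, at 2.56 to 6.43 CPM in the striatum and 19.6 to 31.8 CPM in cortex. Grik4 had a fold of 0.310 to 0.828 and was not called. The median log2 fold of this list was 0.35, against 0.01 for all genes tested.

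The next list held 16 genes for AMPA receptor auxiliary subunits, which steer receptor traffic and gating, and for proteins that associate with the receptor. All 16 were tested, with 5 higher and 7 lower, beside 8.04% higher and 11.4% lower of all genes tested. The pentraxin genes Nptx1, Nptx2 and Nptxr and the olfactomedin gene Olfm2 are not auxiliary subunits, and all of these were among the lower genes. Cacng4, which encodes the auxiliary subunit TARP gamma-4, was at 172.0 to 261.5 CPM in the striatum and 20.4 to 35.5 CPM in cortex, 6.68 to 8.44 times as high. Gsg1l was 1.80 to 2.67 times as high, and Cnih2, Shisa7 and Shisa9 were the other higher genes. Nptx1, a secreted pentraxin that gathers AMPA receptors, was at 28.0 to 63.6 CPM in the striatum and 267.4 to 442.6 CPM in cortex, a fold of 0.0640 to 0.144. Olfm2 was at 0.118 to 0.141 of cortex, and Nptx2, Nptxr, Cacng7, Cnih3 and Shisa6 were also lower. The median log2 fold of the list was -0.17.

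Of 22 postsynaptic scaffold and trafficking genes 21 were tested, with 5 higher and 6 lower and a median log2 fold of 0.03. Beside them, 8.04% of all genes tested were higher and 11.4% lower. The kainate receptor auxiliary genes Neto1 and Neto2 were 2.23 to 2.82 and 2.09 to 3.33 times as high in the striatum, and Shank3, Dlgap3 and Camk2b were the other higher genes. The scaffold gene Shank1 was at 21.1 to 38.1 CPM in the striatum and 154.6 to 270.4 CPM in cortex, a fold of 0.121 to 0.141. Dlgap1 had a fold of 0.226 to 0.263, and Shank2, Homer2, Grip2 and Camk2a were also lower. Of 5 co-agonist and editing enzyme genes 4 were tested and 0 were called. Among them Adarb1, whose enzyme edits the Gria2 transcript, had a fold of 0.609 to 0.786, and Adar of 0.869 to 0.891. Srr, which makes D-serine, had a fold of 1.01 to 1.22 and the glycine transporter gene Slc6a9 of 1.13 to 1.38.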

How the data were processed

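A single table of raw counts, genes by spots, was deposited by the authors. Per the submitters' processing notes, Space Ranger and Seurat were used; versions, genome build, probe set and any spot filter are not given in the sources used here. All values were whole and at least 0.

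The genes and lists were chosen with earlier results of these data known. Counts were scaled to 10000 per spot, and each spot joined the area with the highest mean marker z-score of log2(1 + scaled count) if that score was at least 0.5 and led the next by 0.2. A spot with fewer than 500 counts was left out. Counts were summed by area and set, for areas with at least 30 spots in a set. The rule that an area needs 2 such sets was chosen after the data were seen. Intervals were exact Poisson (levels), conditional binomial (folds) and conditional odds ratio (ratios), at 95% (Python 3.11.15, scipy 1.17.1, numpy 2.4.6, pandas 2.3.3, matplotlib 3.10.9). The scaling factors TMM and RLE were computed with edgeR 4.0.16 (R 4.3.3).

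Named genes were the 10 members, the 3 genes with the highest correlation to each, and the 2 largest and 2 smallest folds of each list. Some genes that this rule names are not reported here. Other list genes are named because their list held few calls; they were chosen after their values were seen, as were the neuron, astrocyte, myelin and oligodendrocyte precursor markers. No genotype test was run, because no spot could be tied to an animal. On simulated counts for striatum against cortex, 180 of 200 genes changed 2-fold were called, and 0 of 9594 unchanged genes. Both simulated areas were drawn from the cortex profile of each set, with small random noise. Unchanged genes could hardly reach the limit in such counts, so the run does not measure false calls in the real data. In that run 9790 genes were above the filter. The part of cell mix in the calls on the measured counts was not tested.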

Additional observations from a re-analysis of the deposited data

Results flagged for a closer look

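Of 30 values checked for a set far from the other 3, 2 stood out, where chance alone gives about 1 in 20. The Gria1 fold of striatum to cortex was lowest in set 2, at a log2 fold of 0.79 against 0.99 to 1.03 in the other sets, a gap of 0.831 of the whole range. The Grin2c/Grin1 ratio of striatum to cortex was also lowest in set 2, at a log2 ratio of 0.19 against 0.44 to 0.45, a gap of 0.932 of the range. In the same set Grin1 was 1.12 times as high in the striatum as in cortex, against 0.978 to 1.01 in the other sets.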

How the results depend on the processing

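No paired analysis was possible because neither animal nor replicate can be read from a spot's barcode. Planned fits of genotype by edgeR, by DESeq2, with a replicate block or without single replicates were therefore not run. The spread without each set and the marker lists of other cell types were added after the data were seen. In all, 1510 values kept their direction and side of the limit, 52 newly passed it, 8 no longer did and 0 reversed. A lead of 0.5 in placing spots raised the higher calls among the layers from 1 to 2. Over the striatum alone, 2 members in place of 5 were 1.5-fold apart between sets. Without each set in turn, lower calls in the striatum were 2 to 3, pairs in other areas were 9 to 10 higher and 20 to 31 lower, and higher ratios were 3 to 4. Areas held by 2 sets drop out when either is left out, which gives the 20 without set 1. The spread count was 4 to 5. Pairs lower ranged from 29 to 41 over the other settings. TMM scaling gave 8 pairs higher and 41 lower in place of 10 and 30, and spots re-assigned by profile 12 and 35. Depth limits Grin2d in the striatum, with 62 counts in set 4.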

Other observations

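Of the genes tested beside the receptor subunits, Cacng4 was higher than in cortex in every area compared apart from layer 6b and claustrum, and Cacng5 in 7 of the areas. Among 21 scaffold and trafficking genes, 13 were lower in the thalamus and 13 in white matter, with 0 higher in either, and 18 were lower in the choroid plexus, beside 10.5%, 13.3% and 26.7% of all genes lower in these areas. Summed neuron markers were at 0.738 to 0.784, 0.322 to 0.419 and 0.133 to 0.168 of cortex in the same areas, and their part was not tested. In the hypothalamic zone 11 were lower and 0 higher, beside 9.21% of all genes lower and neuron markers at 0.464 to 0.521 of cortex, while Grik1, Grik2 and Grid1 were among the higher genes of the other glutamate receptor list. In the thalamus Adarb1 was higher than in cortex, where it was not called in the striatum. The glycine transporter gene Slc6a9 was higher in the basal forebrain, hypothalamic zone, thalamus, white matter, ventricle lining and meninges.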
